A study of Mus musculus with 8 samples.

Results

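Sterol regulatory element-binding proteins (SREBPs) are transcription factors held in the membrane of the endoplasmic reticulum. When membrane sterols are low, the escort protein Scap carries them to the Golgi, where proteases release the active part, which enters the nucleus and switches on lipid synthesis genes. The Insig proteins retain Scap in the endoplasmic reticulum when sterols are plentiful. SREBP2, made from Srebf2, is best known for the genes of cholesterol synthesis, and SREBP1, made from Srebf1, for those of fatty acid synthesis and desaturation. In macrophages these genes supply membrane lipid, and products of the pathway feed back on inflammatory signalling. The 34 genes described here were taken by symbol from the 53647 genes of the count table: a sterol arm of 19 genes, a fatty acid arm of 10 genes and 5 regulators (Srebf1, Srebf2, Scap, Insig1 and Insig2).

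The data are 8 polyA RNA libraries from leukemia macrophages of C57BL/6 mice, sorted after 12 h in culture. E-Mac (MSC-educated macrophages, 4 libraries) shared the culture with mesenchymal stromal cells (MSCs), which are fibroblast-like. Mac (4 libraries) were kept alone. The leukemia model, the source of the stromal cells, the gate of the sort and whether libraries came from separate animals or cultures are not given in the labels, so p-values here rest on library-to-library spread alone, part or all of which could be technical. Values are CPM, counts per 1000000 counts of a library after TMM scaling, and fold changes are E-Mac over Mac, with ± the standard error for log2 fold changes and ± the SD over 4 libraries for CPM.

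Total counts ran from 13377046 to 15740846 in E-Mac and from 11646025 to 15556935 in Mac. The 15 macrophage markers summed to 10922 to 14739 CPM in E-Mac and 13893 to 15035 CPM in Mac, a sum dominated by Lyz2, which averaged 6147 CPM in E-Mac and 11204 CPM in Mac. Taken singly, 10 of the 15 were higher and 2 lower in E-Mac, with a median log2 fold change of 1.01. Among all tested genes 29.5% were higher and 28.8% lower, by the same edgeR test at an adjusted p under 0.05. The 16 granulocyte markers summed to 11703 to 18892 CPM in E-Mac and 34101 to 37888 CPM in Mac. Singly, 11 of the 16 were lower and 2 higher in E-Mac (Mmp9 and Cxcr2), against the same 28.8% and 29.5%. The 18 stromal markers summed to 57.3 to 509 CPM in E-Mac and 10.9 to 12.9 CPM in Mac. The granulocyte, stromal, endothelial and T and NK cell sums each had an exact two-sided permutation p of 0.0286, the smallest that 4 against 4 libraries allow, and 0.050 after Benjamini-Hochberg adjustment over 7 marker lists. The macrophage sum had an exact permutation p of 0.114. The stromal counts were uneven, at 81.7, 451, 57.3 and 509 CPM for E-Mac 1 to 4. Of 12 tested stromal markers 9 were higher in E-Mac, against 29.5% of all tested genes. Among markers picked as examples after their values were seen, Col1a1 averaged 80.3 CPM in E-Mac and 1.13 CPM in Mac, and Sparc averaged 27.5 CPM in E-Mac and 0.603 CPM in Mac, while Lum and Dcn stayed at or below 0.275 CPM in each library. Of the other lists, 5 B cell markers summed to 13.6 to 27.0 CPM in E-Mac and 15.6 to 17.8 CPM in Mac, 6 T and NK cell markers to 2.61 to 4.68 CPM in E-Mac and 10.3 to 15.4 CPM in Mac, 5 endothelial markers to 188 to 256 CPM in E-Mac and 80.0 to 91.7 CPM in Mac (Pecam1, Cdh5 and Kdr higher, Emcn and Tek near 0), and 5 adipocyte markers to 0 CPM in E-Mac and at most 0.621 CPM in Mac. In bulk RNA, fewer cells of a type and less RNA per cell cannot be told apart.

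The promoters shown here are those of Cyp51 and Fads2, the members with the largest rise in each arm among those with a RefSeq promoter, of Tm7sf2 and Lpin1, which moved against their arms, and of Hmgcs1, which was added after the motif search because it alone held the sterol regulatory element searched for. RefSeq promoters (GRCm38.p6, 250 bases before to 50 after the most upstream start) were matched for 27 of the 34 members, Sqle not among them. Each is written 5′ to 3′ on the strand of its gene, and capitals mark the sterol regulatory element TCACNCCAC and the NF-Y box CCAAT on either strand (GTGGNGTGA and ATTGG when reversed). NF-Y is a factor that is known to work beside SREBPs on promoters. The Hmgcs1 promoter lies at chr13:119690101-119690400 on the plus strand, that of Cyp51 at chr5:4104648-4104947, of Fads2 at chr19:10101454-10101753, of Tm7sf2 at chr19:6067801-6068100 and of Lpin1 at chr12:16610917-16611216, the last 4 on the minus strand.
Hmgcs1: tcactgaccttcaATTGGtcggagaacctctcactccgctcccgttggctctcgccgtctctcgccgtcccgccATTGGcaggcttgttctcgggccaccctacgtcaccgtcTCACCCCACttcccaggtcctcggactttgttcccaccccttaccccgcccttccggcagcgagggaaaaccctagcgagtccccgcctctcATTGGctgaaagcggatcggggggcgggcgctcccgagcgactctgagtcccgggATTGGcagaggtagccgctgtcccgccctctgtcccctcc
Cyp51: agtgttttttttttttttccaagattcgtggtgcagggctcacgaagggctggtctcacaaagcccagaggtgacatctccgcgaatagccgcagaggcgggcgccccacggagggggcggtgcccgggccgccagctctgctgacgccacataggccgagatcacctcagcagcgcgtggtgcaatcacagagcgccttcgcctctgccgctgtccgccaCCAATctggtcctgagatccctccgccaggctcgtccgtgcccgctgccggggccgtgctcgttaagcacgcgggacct
Fads2: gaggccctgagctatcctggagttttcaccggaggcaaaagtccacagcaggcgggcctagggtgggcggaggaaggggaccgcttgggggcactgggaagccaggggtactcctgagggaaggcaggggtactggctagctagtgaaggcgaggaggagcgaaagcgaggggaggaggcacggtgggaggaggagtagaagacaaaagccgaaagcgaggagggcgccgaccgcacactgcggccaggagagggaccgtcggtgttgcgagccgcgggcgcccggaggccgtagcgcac
Tm7sf2: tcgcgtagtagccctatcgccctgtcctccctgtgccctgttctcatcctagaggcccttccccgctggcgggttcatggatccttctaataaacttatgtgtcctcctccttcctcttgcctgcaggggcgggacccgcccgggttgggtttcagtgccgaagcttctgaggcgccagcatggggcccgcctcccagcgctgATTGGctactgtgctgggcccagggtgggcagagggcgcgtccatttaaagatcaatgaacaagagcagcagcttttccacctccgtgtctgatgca
Lpin1: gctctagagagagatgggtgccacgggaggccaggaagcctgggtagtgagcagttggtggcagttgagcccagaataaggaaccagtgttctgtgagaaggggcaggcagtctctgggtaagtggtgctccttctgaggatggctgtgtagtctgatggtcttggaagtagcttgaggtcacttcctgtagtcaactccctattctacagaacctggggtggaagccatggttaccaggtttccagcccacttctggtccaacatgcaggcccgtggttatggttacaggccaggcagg

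Hmgcs1 carried the element as TCACCCCAC, from base -137 to -129 relative to the start, with 4 NF-Y boxes, whereas Cyp51 and Tm7sf2 had 1 NF-Y box each and Fads2 and Lpin1 had none. At least 1 NF-Y box stood in 20 of the 27 member promoters (74.1%), in 13 of 15 of the sterol arm and in 3 of 7 of the fatty acid arm. The share was 39.3% over the promoters of 9546 tested genes and 38.0% over all 27026 genes with a promoter. The GC box GGGCGG, the site of the factor Sp1, searched on both strands, was found in 20 of 27 member promoters (74.1%). It was in 14 of 15 of the sterol arm and in 3 of 7 of the fatty acid arm, against 63.4% of the promoters of tested genes. The E-box CACGTG, which SREBPs can also bind, was in 4 of 27 (14.8%), against 10.3% of tested genes, and TCACNCCAC in 1 of 27 (3.70%), against 1.06%. A match describes the letters in this window only. The NF-Y box was present in Cyp51, which rose, and in Tm7sf2, which fell.

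All 34 members had counts in each library (6 to 6072 reads) and were tested. In E-Mac 29 of them were higher and 2 lower at an adjusted p under 0.05 (edgeR quasi-likelihood test, Benjamini-Hochberg over 13412 genes), against 29.5% higher and 28.8% lower among all tested genes, 58.3% in either direction. Of the 34 members 26 were higher by at least 2-fold, against 9.57% of all tested genes. All 4 E-Mac libraries lay above all 4 Mac libraries for 28 members and below them for 2, against 26.7% and 27.2% of all tested genes.

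**Figure D1:**
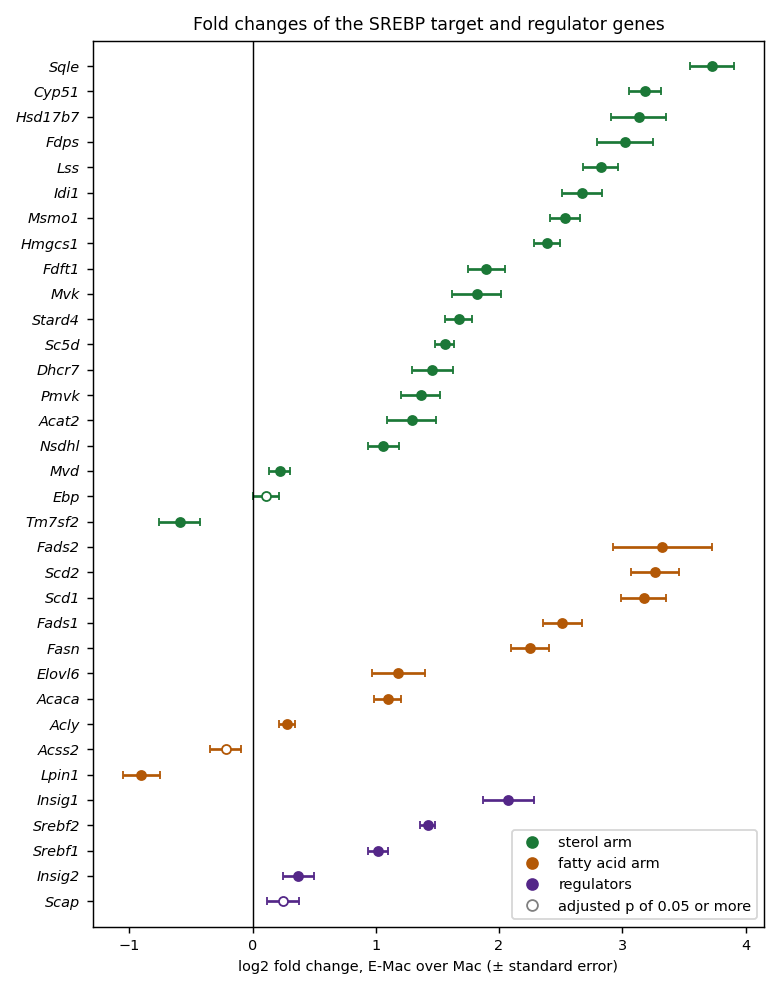
Log2 fold change of each of the 34 genes, E-Mac over Mac, with its standard error, grouped by arm and ordered by size. Filled points passed an adjusted p of 0.05; Tm7sf2 and Lpin1 are the filled points left of 0, and Ebp, Acss2 and Scap are open.

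The sterol arm covers the mevalonate pathway, from acetyl-CoA to farnesyl diphosphate, then squalene and lanosterol, then the steps to cholesterol, and the sterol carrier Stard4. In E-Mac 17 of its 19 genes were higher and 1 was lower, beside 29.5% higher and 28.8% lower of all tested genes. The median log2 fold change of the arm was 1.82 against 0.00 over all tested genes. The summed transcripts of the 19 genes came to 978, 764, 988 and 726 CPM in E-Mac 1 to 4, against 259, 240.1, 246 and 259.6 CPM in Mac 1 to 4. The sum of means was 3.44-fold higher in E-Mac.

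Squalene epoxidase, encoded by Sqle on chromosome 15 (mm10, 59315077 to 59331192), adds the oxygen to squalene and is a slow step of the pathway. Sqle stood at 95.3, 62.2, 79.8 and 53.6 CPM in E-Mac 1 to 4, against 5.22, 5.91, 5.16 and 5.73 CPM in Mac 1 to 4. Its lowest E-Mac library was far above its highest Mac library, and its 13.2-fold rise was the largest of the 34 genes (3.72 ± 0.18, adjusted p = 4.60e-09). The next enzyme, lanosterol synthase, closes the sterol rings. Its gene Lss had 37.0, 27.9, 34.2 and 26.6 CPM in E-Mac, against 4.16, 5.08, 4.48 and 4.07 CPM in Mac, a 7.08-fold rise (2.82 ± 0.14, adjusted p = 2.13e-09). Cyp51, on chromosome 5 (4081145 to 4104746), encodes the lanosterol 14-demethylase. It had 127, 106, 143 and 105 CPM in E-Mac, against 13.9, 14.9, 10.4 and 13.8 CPM in Mac, 9.10-fold higher in E-Mac without overlap.

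Hsd17b7 encodes the ketoreductase of C4 demethylation. It had 36.8, 23.0, 32.7 and 19.4 CPM in E-Mac, against 3.42, 2.41, 2.83 and 3.95 CPM in Mac (3.13 ± 0.23, 8.76-fold, adjusted p = 1.43e-07). Farnesyl diphosphate synthase, from Fdps, makes the last intermediate shared with the non-sterol isoprenoids. Fdps had 12.7, 8.39, 13.1 and 9.78 CPM in E-Mac, against 1.86, 1.08, 1.04 and 1.36 CPM in Mac (3.02 ± 0.23, 8.12-fold, adjusted p = 1.27e-07). In each of these 2 genes E-Mac 1 and 3 were higher than E-Mac 2 and 4, and every E-Mac library exceeded every Mac library. In the GENCODE M21 annotation 1124 exon bases of Fdps are shared with the gene model Gm43738 on the same strand, which had no counts, so the level of Fdps is uncertain.

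Another 11 sterol arm genes rose by 2.09-fold to 6.37-fold, averaging 12.0 to 121 CPM in E-Mac and 3.44 to 23.0 CPM in Mac. None of them had overlapping groups, but Mvd, which did overlap, was set apart after its values were seen. Of all tested genes, 26.7% had all E-Mac libraries above all Mac libraries. Among the early steps, Hmgcs1, which encodes the HMG-CoA synthase, averaged 121 ± 19.4 CPM in E-Mac and 23.0 ± 1.10 CPM in Mac (2.39 ± 0.11). Mevalonate kinase (Mvk) averaged 15.9 ± 4.34 CPM in E-Mac and 4.52 ± 0.750 CPM in Mac (1.82 ± 0.20). Phosphomevalonate kinase (Pmvk) averaged 27.6 ± 6.92 CPM in E-Mac and 10.7 ± 0.524 CPM in Mac (1.36 ± 0.16). The rise was thus larger at the synthase than at the 2 kinases that follow it. The isomerase gene Idi1 rose more than any of these 3, to 21.8 ± 4.25 CPM in E-Mac, against 3.44 ± 0.425 CPM in Mac (2.67 ± 0.16).

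Acat2, which encodes the cytosolic thiolase that makes acetoacetyl-CoA, averaged 12.0 ± 2.70 CPM in E-Mac and 4.87 ± 1.10 CPM in Mac (1.29 ± 0.20). Its reads may be shared with close gene copies in a way that is not known here. Fdft1, which encodes squalene synthase, the first enzyme committed to sterols, averaged 46.7 ± 10.2 CPM in E-Mac and 12.5 ± 1.47 CPM in Mac (1.90 ± 0.15). Fdft1 shares 774 exon bases with the abundant protease gene Ctsb on the opposite strand, and Ctsb averaged 3517 CPM in E-Mac and 1024 CPM in Mac. Since strand use in the counting is not given, the part of Ctsb reads in the Fdft1 value was not tested. Cyp51 likewise shares 166 exon bases with Akap9 on the opposite strand, which averaged 65.3 CPM in E-Mac and 74.7 CPM in Mac.

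Of the late enzymes, the C4 methyl oxidase gene Msmo1 averaged 96.4 ± 15.4 CPM in E-Mac and 16.6 ± 2.03 CPM in Mac (2.54 ± 0.12). Its partner in C4 demethylation, Nsdhl, averaged 24.7 ± 3.88 CPM in E-Mac and 11.8 ± 0.827 CPM in Mac (1.06 ± 0.12), the smallest rise of the 11. The 3 genes of this demethylation therefore rose to different extents, Hsd17b7 most and Nsdhl least. The lathosterol desaturase gene Sc5d had the smallest SD relative to its mean in E-Mac of the arm, at 64.9 ± 3.40 CPM in E-Mac and 22.0 ± 1.21 CPM in Mac (1.56 ± 0.08). Dhcr7, whose product reduces 7-dehydrocholesterol to cholesterol, averaged 26.5 ± 6.54 CPM in E-Mac and 9.63 ± 1.12 CPM in Mac (1.46 ± 0.17). Stard4, a soluble carrier that moves sterol between membranes, averaged 47.0 ± 5.12 CPM in E-Mac and 14.7 ± 1.64 CPM in Mac (1.67 ± 0.11). The largest adjusted p among the 16 risen sterol genes other than Mvd was 0.000101.

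Mvd, Ebp and Tm7sf2 did not share this size of change. Mvd, which encodes the decarboxylase that makes isopentenyl diphosphate, had 48.9, 42.4, 50.2 and 43.5 CPM in E-Mac, against 39.1, 37.7, 38.5 and 43.2 CPM in Mac. The groups overlapped, and the 1.17-fold difference passed narrowly (0.22 ± 0.08, adjusted p = 0.0362). Leaving out E-Mac 1, E-Mac 3, Mac 1, Mac 2 or Mac 3 ended the call of Mvd (adjusted p = 0.0765, 0.0934, 0.0773, 0.0599 and 0.0922), as did scaling by total counts alone (0.08, adjusted p = 0.461), within 0.00147 to 1 over all alternatives. Ebp, the sterol isomerase gene, had 45.2, 45.3, 50.2 and 35.7 CPM in E-Mac, against 41.6, 36.4, 42.0 and 43.2 CPM in Mac, with overlapping groups (0.11 ± 0.10, adjusted p = 0.375). Without E-Mac 2 and 4 the Ebp value was 0.23 (adjusted p = 0.0253, 0.0253 to 1 over all alternatives).

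Tm7sf2, which encodes a C14 sterol reductase, fell to 7.17, 4.47, 6.33 and 6.61 CPM in E-Mac, against 10.5, 8.16, 8.23 and 10.05 CPM in Mac (-0.59 ± 0.17, adjusted p = 0.00844). Its highest E-Mac library stayed below its lowest Mac library. Tm7sf2 shares 532 exon bases with Vps51 on the same strand, which averaged 5.11 CPM in E-Mac and 7.81 CPM in Mac, and reads in that stretch cannot be told apart. Lbr, which encodes the other C14 reductase of the cell and was looked up after the value of Tm7sf2 had been seen, was lower too, at 272 ± 34.4 CPM in E-Mac and 397 ± 16.7 CPM in Mac (-0.55 ± 0.09, adjusted p = 0.000131).

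**Figure D2:**
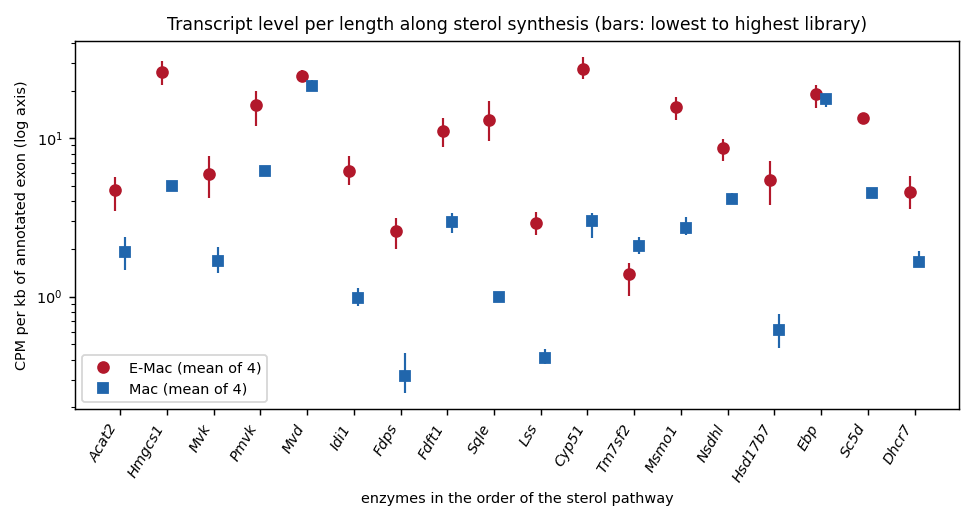
Mean CPM per kb of annotated exon (log axis) for 18 sterol pathway enzymes in pathway order, with E-Mac as circles and Mac as squares and vertical bars from the lowest to the highest of the 4 libraries. Mvd and Ebp, at 21.3 and 17.7 CPM per kb in Mac, lie almost together in both groups, and Tm7sf2 is the enzyme whose circle lies below its square.

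Levels of different genes were compared per kb of annotated exon. This length joined all annotated exons of a gene (10.8 kb for Lss, 1.86 kb for Mvd) and can exceed that of the mRNA present. The ranges and ranks therefore depend on the annotation too. In Mac the sterol arm spanned a 67.1-fold range of levels, with Fdps lowest at 0.318 CPM per kb and Mvd highest at 21.3 CPM per kb, followed by Ebp at 17.7 CPM per kb. These 2 genes with the highest Mac levels were the ones whose levels differed by less than 1.2-fold. In E-Mac the range of levels was 19.5-fold, from Tm7sf2 at 1.40 CPM per kb to Cyp51 at 27.2 CPM per kb, with Hmgcs1 at 26.3, Mvd at 24.9 and Ebp at 19.1 CPM per kb close behind. The lower ends of both ranges, Fdps in Mac and Tm7sf2 in E-Mac, are uncertain because of their shared exon bases. The median level of the arm was 8.66 CPM per kb in E-Mac and 2.64 CPM per kb in Mac.

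Among the regulators, the transcript of SREBP2 was the more abundant of the 2 SREBP genes in both groups. Srebf2, on chromosome 15 (82147181 to 82205379), had 379.8, 384, 378 and 365 CPM in E-Mac, against 138, 137, 139 and 149 CPM in Mac. The 4 E-Mac libraries were nearly equal, and the 2.68-fold rise was larger than any spread between libraries (1.42 ± 0.06, adjusted p = 6.78e-10). Srebf1, on chromosome 11 (60199089 to 60222581), had 149.7, 143, 169 and 130.3 CPM in E-Mac, against 70.1, 73.2, 75.3 and 74.0 CPM in Mac (1.02 ± 0.08, 2.03-fold, adjusted p = 1.76e-07). Per kb the levels were 52.4 for Srebf2 and 26.3 for Srebf1 in E-Mac, and 19.6 and 13.0 CPM per kb in Mac. Gene counts do not separate the isoforms SREBP1a and SREBP1c, nor do they show the cleaved, active proteins.

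Insig1 encodes a sterol sensor that is itself an SREBP target and closes a feedback loop. It had 133, 95.3, 120.0 and 86.0 CPM in E-Mac, against 23.8, 37.7, 21.7 and 20.7 CPM in Mac (2.07 ± 0.21, 4.21-fold, adjusted p = 1.64e-05). Mac 2 was the highest of its group and still below each E-Mac library. Insig2, a related protein that is less dependent on SREBPs, differed by 1.29-fold, with 19.8, 19.1, 23.8 and 17.4 CPM in E-Mac, against 15.8, 16.1, 13.0 and 17.1 CPM in Mac (0.37 ± 0.12, adjusted p = 0.0207). The groups of Insig2 just failed to touch, and leaving out E-Mac 3 or Mac 3 ended its call (adjusted p = 0.0672 and 0.0753). So did upper-quartile factors, total counts only and a replicate block (adjusted p = 0.0658, 0.133 and 0.0563). The stricter threshold and the test against a 1.5-fold change ended it too, within 0.00123 to 1 over all alternatives.

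Scap did not pass, with 57.4, 76.5, 50.5 and 81.9 CPM in E-Mac, against 55.2, 56.6, 56.8 and 55.9 CPM in Mac (0.25 ± 0.13, adjusted p = 0.124). E-Mac 2 and 4, and narrowly E-Mac 1, were above all Mac libraries, and E-Mac 3 was below them. Leaving out E-Mac 3 gave 0.36 (adjusted p = 0.0107), whereas leaving out E-Mac 2 and 4 together gave -0.05 (adjusted p = 0.586), within 0.0107 to 1 over all alternatives. Scap shares 985 exon bases with 5830462I19Rik on the opposite strand, which averaged 0.304 CPM in E-Mac and 0.646 CPM in Mac.

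**Figure D3:**
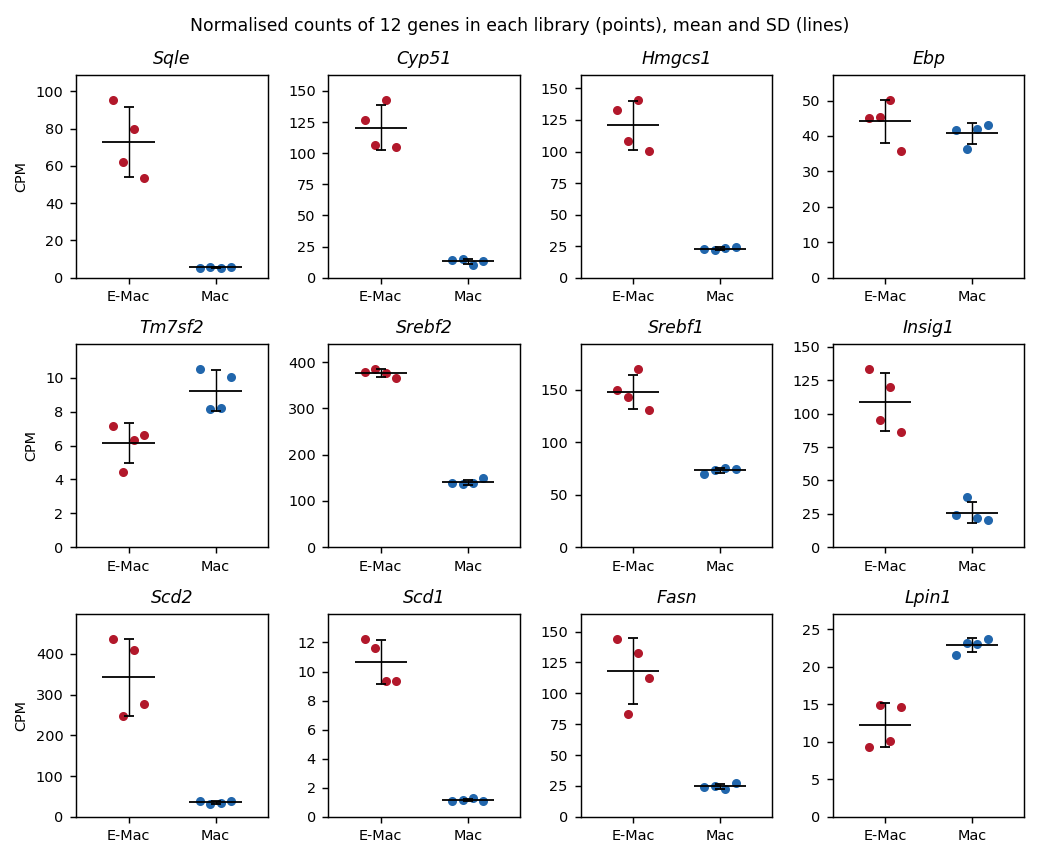
CPM of 12 genes in each library, with E-Mac left and Mac right in each panel, points for single libraries and lines for the mean and SD over 4 libraries; each vertical axis starts at 0. Sqle, Cyp51, Hmgcs1, Srebf2, Srebf1, Insig1, Scd2, Scd1 and Fasn lie higher in all E-Mac libraries, Tm7sf2 and Lpin1 lower, and the Ebp groups overlap.

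The fatty acid arm holds the enzymes that make acetyl-CoA and malonyl-CoA in the cytosol, build palmitate, elongate and desaturate it. In E-Mac 8 of its 10 genes were higher and 1 was lower, beside 29.5% higher and 28.8% lower of all tested genes. The median log2 fold change of the arm was 1.72. Its transcripts summed to 1097, 763, 1025 and 835 CPM in E-Mac 1 to 4, against 394, 392, 393 and 402 CPM in Mac 1 to 4, 2.35-fold higher in E-Mac.

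The changes were largest at the desaturases. Scd2 and Scd1 encode stearoyl-CoA desaturases, which place the double bond of oleate and palmitoleate, and they are neighbours on chromosome 19 (44293674 to 44306864 and 44394455 to 44407879). Scd2 had 436, 246, 409 and 276 CPM in E-Mac, against 38.9, 32.1, 33.2 and 37.7 CPM in Mac (3.27 ± 0.19, 9.62-fold, adjusted p = 2.27e-07). Scd1 had 12.2, 11.6, 9.36 and 9.34 CPM in E-Mac, against 1.12, 1.17, 1.29 and 1.11 CPM in Mac (3.17 ± 0.18, 9.02-fold, adjusted p = 9.43e-09). Both genes rose to a like extent, but the level of Scd2 per kb was 28.8 times that of Scd1 in E-Mac and 27.1 times in Mac. With a mean of 62.6 CPM per kb, Scd2 had the highest level of the 34 genes in E-Mac. There Acly averaged 57.2 CPM per kb and Srebf2 52.4, and both were above Scd2 per kb in E-Mac 2 and 4. In Mac, Scd2 had 6.49 CPM per kb. How reads matching both Scd genes were counted is not given.

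Fads1 and Fads2, which encode the delta-5 and delta-6 desaturases of polyunsaturated fatty acids, also lie close together on chromosome 19 (10182888 to 10196877 and 10062765 to 10101746). Fads1 had 53.2, 35.5, 47.2 and 35.9 CPM in E-Mac, against 8.64, 5.83, 7.68 and 7.71 CPM in Mac (2.51 ± 0.16, 5.71-fold, adjusted p = 2.19e-08). Fads2 had 11.8, 4.81, 10.2 and 9.27 CPM in E-Mac, against 1.74, 0.916, 0.553 and 0.370 CPM in Mac (3.32 ± 0.40, 10.01-fold, adjusted p = 2.26e-05). Fads2 was the member with the largest SD relative to its mean in both groups, and Mac 4 held 6 reads of it, so its fold change is the least precise.

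Fatty acid synthase, from Fasn, assembles palmitate. Fasn had 144, 82.9, 132 and 113 CPM in E-Mac, against 24.0, 24.9, 22.9 and 27.4 CPM in Mac (2.25 ± 0.15, 4.76-fold, adjusted p = 1.92e-07). Acaca, the acetyl-CoA carboxylase that supplies malonyl-CoA, averaged 48.3 ± 6.56 CPM in E-Mac and 22.5 ± 2.06 CPM in Mac (1.10 ± 0.11, 2.14-fold). The palmitate elongase gene Elovl6 averaged 29.8 ± 9.80 CPM in E-Mac and 13.1 ± 1.74 CPM in Mac (1.18 ± 0.22, 2.27-fold, adjusted p = 0.000676). For all 3 genes each E-Mac library lay above each Mac library, with E-Mac 2 the lowest of its group.

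Acly and Acss2 feed cytosolic acetyl-CoA into both arms, from citrate and from acetate. Acly was abundant in both groups, at 322, 293, 309 and 285 CPM in E-Mac, against 239.7, 252, 255 and 250.2 CPM in Mac. Its 1.21-fold rise passed without overlap (0.28 ± 0.06, adjusted p = 0.00239) but not under scaling by total counts alone (0.13, adjusted p = 0.0861, 3.58e-06 to 1 over all alternatives). Acss2 had 12.9, 17.2, 12.9 and 17.8 CPM in E-Mac, against 17.9, 18.1, 17.2 and 17.7 CPM in Mac, and did not pass (-0.22 ± 0.12, adjusted p = 0.150). E-Mac 1 and 3, and narrowly E-Mac 2, were below all Mac libraries, and E-Mac 4 was among them. Without E-Mac 2 and 4 the value of Acss2 was -0.45 (adjusted p = 0.00282), and with total counts only it was -0.36 (adjusted p = 0.0240), within 0.00282 to 1 over all alternatives. Acss2 shares 395 exon bases with Gss on the opposite strand, which averaged 10.2 CPM in E-Mac and 8.72 CPM in Mac.

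Lpin1, on chromosome 12 (16535669 to 16610966), encodes lipin-1, a phosphatidate phosphatase of glycerolipid synthesis that also acts in the nucleus. It was the member of this arm that fell, with 9.28, 14.9, 10.03 and 14.7 CPM in E-Mac, against 21.6, 23.1, 23.0 and 23.7 CPM in Mac (-0.90 ± 0.15, adjusted p = 0.000167). All E-Mac libraries were below all Mac libraries, E-Mac 1 and 3 furthest.

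**Figure D4:**
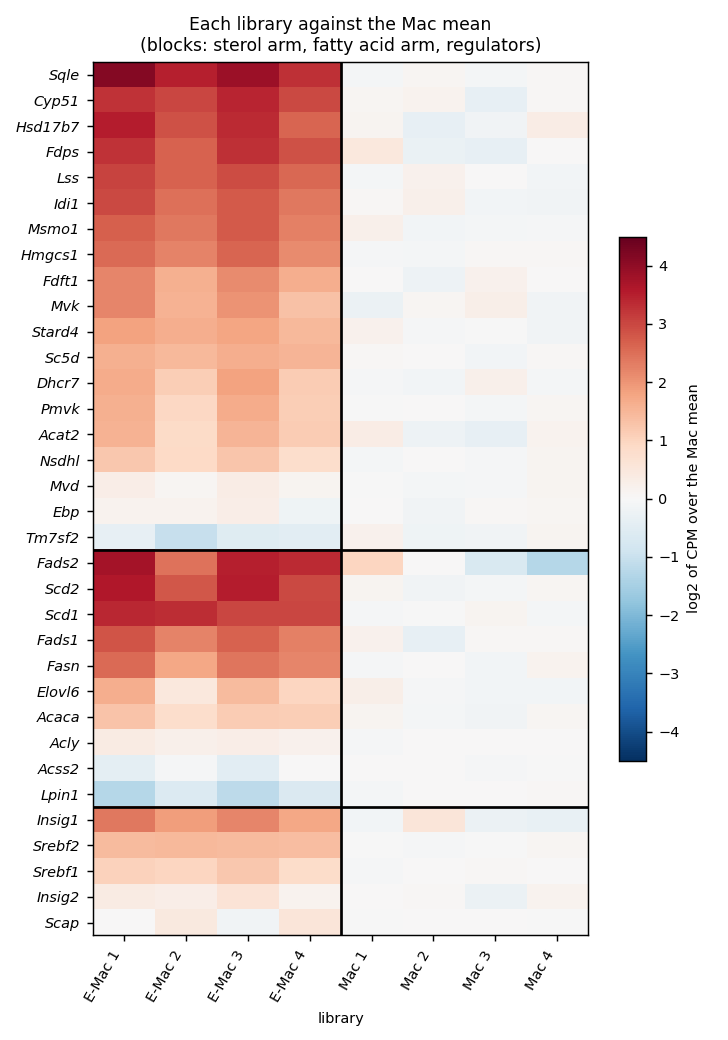
Log2 of each library's CPM over the Mac mean for the 34 genes, E-Mac libraries left and Mac libraries right, in blocks for the sterol arm, the fatty acid arm and the regulators. Most genes are darker red in E-Mac 1 and 3 than in E-Mac 2 and 4, while Srebf2, which differed between these by 0.02 on the log2 scale, has the same shade in all 4.

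The members varied together within E-Mac. In 27 of the 34, E-Mac 1 and 3 were both above E-Mac 2 and 4, against 33.0% of all tested genes, and in 3 they were both below, against 25.8%. The sterol arm contributed 17 of the 27 and the fatty acid arm 7. The median log2 ratio of the mean of E-Mac 1 and 3 over that of E-Mac 2 and 4 was 0.39 for the sterol arm, 0.37 for the fatty acid arm and 0.05 for all tested genes. Scap, Acss2 and Lpin1 were the 3 that ran the other way, with ratios of -0.55, -0.44 and -0.61. These pairs of libraries were set apart by their stromal counts and not by any label.

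In the same comparison the 12 tested stromal markers had a median ratio of -2.89 and were all lower in E-Mac 1 and 3. This follows from the choice of the pairs by stromal counts and is no separate result. Granulocyte markers were mixed, with 9 of 16 lower and 5 higher in E-Mac 1 and 3 (median -0.45). Of 15 macrophage markers 11 were higher and 2 lower there (median 0.46). The shares over all tested genes were 33.0% higher and 25.8% lower. Without E-Mac 2 and 4, 18 sterol genes, 8 fatty acid genes and 4 regulators were higher, against 30.8% of all genes tested there. In that fit 1 sterol and 2 fatty acid genes were lower, beside 4146 of all 14128 genes tested. The median log2 fold change was then 2.12 in the sterol arm and 2.01 in the fatty acid arm. All 29 risen members had a log2 fold change at least as large without these 2 libraries, while that of Tm7sf2 was -0.45. That of Lpin1 ranged from -1.23 to -0.79 over all alternatives. Since E-Mac 2 and 4 were the lower pair in 27 of the 34 members, the larger values and medians mostly restate that split. They are no separate check. Between E-Mac and Mac, the granulocyte sum was 0.409 of its Mac level. Of the 16 granulocyte markers, 11 were lower and 2 higher, beside 28.8% and 29.5% of all tested genes. The macrophage sum was 0.895 of its Mac level, although 10 of 15 macrophage markers rose. The part of this mix in the changes of the 34 genes was not tested.

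**Figure D5:**
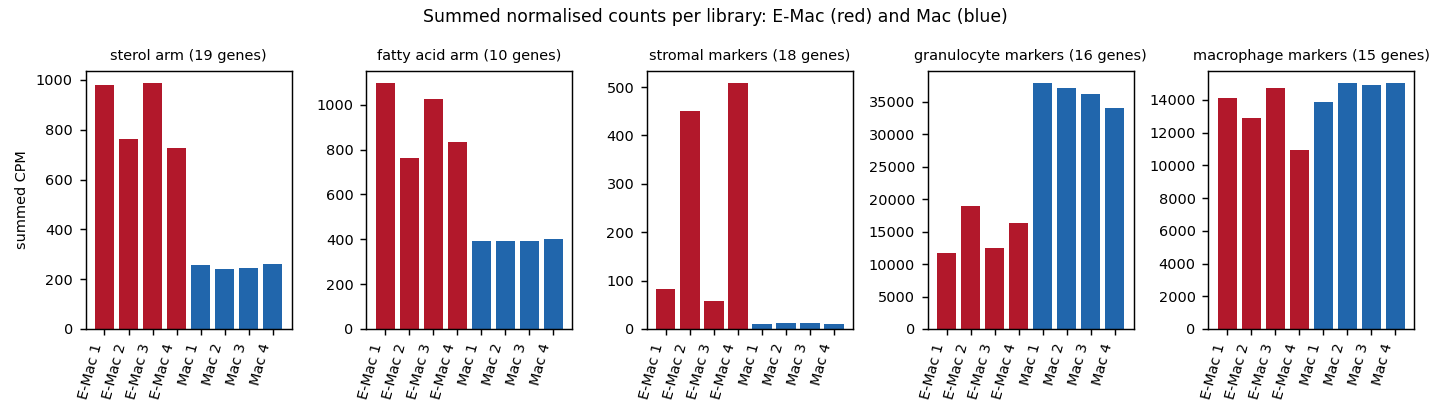
Summed CPM per library of the sterol arm, the fatty acid arm and 3 marker lists, with E-Mac libraries left and Mac libraries right; each axis starts at 0. Within E-Mac the libraries with the highest stromal sums, 451 and 509 CPM in E-Mac 2 and 4, have the lowest sterol sums, 764 and 726 CPM.

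Other genes of the same network were counted from 4 lists. Of 11 genes for SREBP processing and turnover, 4 were higher and 3 lower, with a median log2 fold change of 0.16, which is near the 29.5% higher and 28.8% lower of all tested genes. The site-1 protease gene Mbtps1, whose product makes the first cut that frees SREBPs, was lower, at 69.3 ± 3.94 CPM in E-Mac and 92.4 ± 5.16 CPM in Mac (-0.41 ± 0.07, adjusted p = 0.000195). Erlin1, an endoplasmic reticulum protein that restrains SREBP activation, was lower too, at 72.4 ± 5.30 CPM in E-Mac and 97.8 ± 6.04 CPM in Mac (-0.43 ± 0.07). Faf2, an adaptor of protein degradation at that membrane, was higher, at 65.5 ± 2.73 CPM in E-Mac and 51.7 ± 2.96 CPM in Mac (0.34 ± 0.07). None of the 11 changed by 2-fold.

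The 9 genes of the isoprenoid branches, which take farnesyl or isopentenyl diphosphate away from sterols, included 1 that was higher and 3 that were lower, with a median of -0.12. Among all tested genes 29.5% were higher and 28.8% lower, and the share of lower genes here was near the latter. Nus1 and Dhdds encode the subunits of the enzyme that starts dolichol synthesis, and they moved apart. Nus1 averaged 102 ± 17.8 CPM in E-Mac and 54.2 ± 1.76 CPM in Mac (0.92 ± 0.11, adjusted p = 7.62e-06), while Dhdds averaged 43.2 ± 5.50 CPM in E-Mac and 69.6 ± 5.19 CPM in Mac (-0.69 ± 0.09, adjusted p = 3.50e-05). Pdss2, of ubiquinone side chain synthesis, was low in both groups, at 2.73 ± 0.783 CPM in E-Mac and 4.38 ± 0.962 CPM in Mac (-0.69 ± 0.25, adjusted p = 0.0290).

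Of 8 genes of sterol transport and esterification 6 were higher and 0 lower, with a median of 1.14, beside the same 29.5% and 28.8%. Npc1, which exports cholesterol from lysosomes, averaged 227 ± 29.5 CPM in E-Mac and 80.2 ± 5.67 CPM in Mac (1.503 ± 0.09). The cholesterol ester hydrolase gene Nceh1 averaged 228 ± 42.4 CPM in E-Mac and 59.5 ± 4.19 CPM in Mac (1.94 ± 0.12). The lysosomal acid lipase gene Lipa averaged 312 ± 38.1 CPM in E-Mac and 126 ± 6.67 CPM in Mac (1.31 ± 0.09). Soat1, which encodes the enzyme that esterifies cholesterol, and the sterol-binding protein gene Osbp were the 2 that did not pass, with log2 fold changes of -0.10 ± 0.09 and -0.12 ± 0.06 (adjusted p = 0.333 and 0.130).

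Of 16 tested genes among 19 for other fatty acid and glycerolipid steps, 7 were higher and 5 lower, with a median of 0.04, beside 29.5% higher and 28.8% lower of all tested genes. The citrate carrier gene Slc25a1, whose product exports citrate from mitochondria for Acly, averaged 58.1 ± 8.31 CPM in E-Mac and 20.8 ± 2.86 CPM in Mac (1.48 ± 0.12, adjusted p = 2.77e-07). Elovl5, an elongase of polyunsaturated fatty acids that acts beside Fads1 and Fads2, was lower, at 88.1 ± 5.89 CPM in E-Mac and 144 ± 8.83 CPM in Mac (-0.71 ± 0.07, adjusted p = 1.95e-06). Agpat2, of glycerolipid synthesis, was lower as well, at 48.0 ± 4.42 CPM in E-Mac and 79.7 ± 4.07 CPM in Mac (-0.73 ± 0.08).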

How the data were processed

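The authors deposited 1 table of raw counts per gene symbol. Tools named in the submitters' processing notes were HISAT2, featureCounts, Subread, bcl2fastq and DESeq2, with build mm10; the sources used here do not give the annotation release, strand setting or treatment of multi-mapping reads. The 26 date-form names (0.133 to 0.160% of counts) were left out; 37 mitochondrial genes had 0 counts. Each pair of same-group libraries differed by more than counting noise (lowest chi-square over its degrees of freedom 4.85).

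The test was the quasi-likelihood test of edgeR 4.0.16 under R 4.3.3 (filter with filterByExpr at minimum count 10 and minimum total 15, TMM, robust fit of group, Benjamini-Hochberg over 13412 genes, threshold 0.05), which was tested on simulated data. The simulation gave every gene the same spread and changed few genes, so it cannot show the error rate in the data here. The standard error is the log2 fold change divided by the square root of F. TMM factors were 0.931 to 0.970 in E-Mac and 1.03 to 1.07 in Mac. Marker sums were compared by exact permutation. Coordinates and exon lengths came from GENCODE M21 (mm10), which held all 34 members; promoters came from RefSeq. At 11646025 to 15740846 counts per library, precision was limited for members of few reads.

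Alternatives were RLE, upper-quartile and no factors, 2 other filters, DESeq2 1.42.0, limma-voom (limma 3.58.1), a replicate block, no robust option, a stricter threshold (0.01), testing against a 1.5-fold change, each library left out, and E-Mac 2 and 4 left out. The members and lists were chosen with earlier results of these data known. Values in each library were given for the regulators, the 5 largest changes of each arm, members that moved against their arm and members that did not pass; Mvd and Acly were added after their values were seen, and Acss2, Ebp and Scap were those that did not pass. From each other pathway list the 3 genes of smallest adjusted p were named, and Soat1 and Osbp were added after their values were seen.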

Additional observations from a re-analysis of the deposited data

Results flagged for a closer look

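In 3 of 106 groups of 4 libraries, 1 library stood apart from the other 3 by a gap above Dixon's critical value for 4 samples; chance alone flags about 1 group in 20. Dhcr7 was 11.3 CPM in Mac 3, against 8.91 to 9.19 CPM in the other Mac libraries. Srebf2 was 149 CPM in Mac 4, against 137 to 139 CPM in the others. Both values remained below every E-Mac library. The summed macrophage markers were 13893 CPM in Mac 1, against 14899.5 to 15035 CPM in the other Mac libraries.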

How the results depend on the processing

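Of the 34 members 27 kept their direction and their side of the threshold in each alternative that gave a value (19 or 20 per gene); the exceptions were Mvd, Ebp, Tm7sf2, Insig2, Scap, Acly and Acss2. Of 675 comparisons 648 kept both, 21 lost the call, 4 gained it and 2 changed sign: Ebp was -0.035 with total counts only, and Scap was -0.051 without E-Mac 2 and 4. The 1 lower sterol gene became 0 with the filter of 10 CPM, which left Tm7sf2 untested, and 0 against a fold of 1.5; the 1 lower fatty acid gene became 2 with total counts only and 2 without E-Mac 2 and 4. Against a fold of 1.5, 1490 of all genes were higher and 1478 lower, where 3954 and 3860 passed the main test. Scaling by total counts only moved the median of all genes by -0.14 and the share of higher calls to 37.4% (2996 higher, 5018 lower), where TMM gave 50.6%; the sterol and fatty acid medians were then 1.67 and 1.57. With 1 library left out, 16 to 17 sterol genes, 8 fatty acid genes and 3 to 4 regulators were higher and 1, 1 and 0 lower, with 3708 to 4059 genes higher and 3525 to 3927 lower in all. The replicate block gave 16 higher sterol genes (Mvd lost), 8 higher fatty acid genes and 3 higher regulators (Insig2 lost); same-numbered libraries did not deviate together (correlations of -0.11 to 0.03), 1 of 4 E-Mac and 1 of 4 Mac libraries correlated best with their own number, and the numbers were not taken as pairs. Apart from the filter that removed Tm7sf2, the cause was not tested. Depth limits Fads2, Fdps and Scd1 most, which had about 1 CPM in Mac.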
